A study of Mus musculus with 6 samples.

Results

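Hemoglobin, heme and metal-binding genes were examined in blood stem and progenitor cells of the mouse. The genes were Hba-a1, Hbb-b1 and Hbb-b2 (globins), Alas2, Urod, Cpox and Fech (enzymes of heme synthesis), and Mt1 and Mt2 (metallothioneins). They were taken as every array probe set that the probe table assigns to 1 of these symbols alone, which gave 16 of 45037 probe sets. Of the 9 genes 8 had such a probe set, and Hbb-b1 had none. A filter on low values, a mean intensity of at least 149 over the 6 arrays, was passed by 10 of the 16 probe sets, which read 6 of the genes (Hbb-b2, Cpox, Fech, Urod, Mt1 and Mt2).

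The cells were LSK cells (lineage-negative, Sca-1 and c-Kit positive) sorted from adult bone marrow of 3 mice, numbered 278, 279 and 281, of genotype Mx1Cre;Ergkd/+;R26Y on a mixed 129-B6 background. Each mouse gave a YFP-negative population, labelled Erg-knockdown with about 40% less Erg, and a YFP-positive population, labelled Erg-restored to the wild-type level. All cells thus carried the Cre driven by the interferon-responsive Mx1 promoter, 1 Erg knockdown allele before any recombination, and the Rosa26 reporter that makes yellow fluorescent protein (YFP) after Cre has acted. The labelled Erg dose therefore cannot be told apart from Cre action or from which cells Cre spared. Each population was hybridized to 1 Affymetrix array, after RNA amplification with the NuGEN Ovation V2 system. Levels are the deposited probe set intensities. Differences subtract the restored-labelled from the knockdown-labelled value after log2(intensity + 16), and their errors are standard errors of a limma fit with the mouse as a block, run over all 22519 probe sets past the filter.

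Hemoglobin is made of alpha-globin and beta-globin chains, each holding a heme group. Heme is built from glycine and succinyl-CoA in a fixed series of steps that begins and ends in mitochondria, and red cell precursors run it at a high rate. Metallothioneins are small cysteine-rich proteins that bind zinc and copper, and their transcription is raised by metals, by oxidative stress and by glucocorticoids. Stem and progenitor cells carry the general heme enzymes, while globins and Alas2 mark the erythroid lineage.

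The targeted gene was read first. Erg probe set 1440244_at averaged 2810 ± 140 in knockdown-labelled and 2764 ± 124 in restored-labelled cells, and 1425370_a_at averaged 1573 ± 245 and 1696 ± 159 (SD, n = 3 arrays each). Their differences were 0.024 ± 0.089 and -0.11 ± 0.088 (adjusted p = 0.954 and 0.818, limma). The labelled reduction was not seen, so the populations are named by their labels only. Of the gate genes, Kit read 3972 to 5206 over the 6 arrays, while the Sca-1 gene Ly6a had no probe set of its own here. All 8 listed stem and progenitor genes with a probe set passed the filter. They ran from Slamf1 at 224 to 577 up to Cd34 at 8800 to 9512, with Mecom at 4633 to 5615. No other cell population was on the arrays, so these levels do not test the stem cell label. Of the 16 listed erythroid markers with a probe set, 13 passed the filter, among them Ermap at 1113 to 4866, Aqp1 at 1495 to 4358 and Klf1 at 757 to 3437. The other 3, the red cell membrane genes Slc4a1 (53.1 to 95.9), Epb42 (35.0 to 113) and Sptb (45.2 to 70.3), lay below it in their mean. The restored-labelled array of mouse 279 stood apart in RNA quality, with a 3' over 5' log2 ratio of the Actb and Gapdh controls of 0.71 against 0.47 to 0.54 on the other arrays. Summed neutrophil genes (12 of 15 listed had a probe set) reached 46814, 78435 and 47808 in knockdown-labelled cells of mice 278, 279 and 281, against 46881, 38183 and 72482 in restored-labelled cells. Mouse 279 is therefore also left out below, and the part of these values in the results was not tested. Leaving it out does not balance the neutrophil genes. Without it, 1 of the 12 was higher and 11 were lower in knockdown-labelled cells, with a median difference of -0.29, against 6509 of all 10825 genes higher.

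No probe set of the whole table passed an adjusted p of 0.05 in limma with Benjamini-Hochberg adjustment (0% called), and 1366 probe sets (6.07%) had an unadjusted p below 0.05. Of the 1366, 78.3% were higher in knockdown-labelled cells, a share that was 49.8% after quantile normalization and 35.6% with every array centred at its median. Among the 10 probe sets of the members, 1 was higher at that level (Mt2, against 4.75% of all probe sets) and 1 was lower (Hbb-b2, against 1.32%). Without the mouse term neither had an unadjusted p below 0.05 (limma, unadjusted p = 0.362 and adjusted p = 0.836 for Mt2, unadjusted p = 0.645 and adjusted p = 0.909 for Hbb-b2). All 3 mice were higher in knockdown-labelled cells at 3 of the 10 (Mt2, Cpox 1422492_at and Fech 1418699_s_at), against 20.8% of all probe sets, and all 3 were lower at 1 (Hbb-b2), against 10.4%. None of the 10 had knockdown-labelled and restored-labelled arrays without overlap, against 14% of all probe sets. The median difference was 0.098 over the 10 and 0.020 over all probe sets tested, and without mouse 279 these medians were 0.0060 and 0.049. With 3 mice, an exact sign-flip test of a single value cannot go below p = 0.25.

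**Figure D1:**
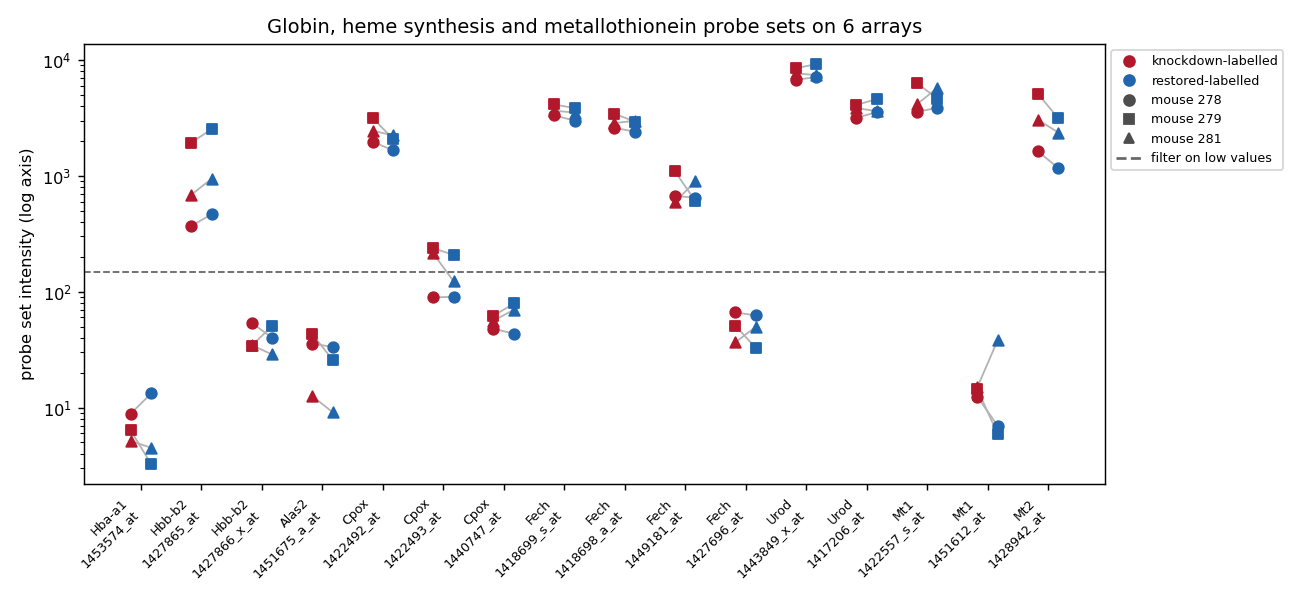
Intensity (log axis) of the 16 probe sets on the 6 arrays; red points are knockdown-labelled, blue points restored-labelled, shapes are mice, and grey lines join the populations of a mouse. The 6 probe sets of low mean lie under the dashed filter line at 149. For Hbb-b2 1427865_at and Mt2 the levels of mouse 278 (circles) lie below those of the other mice.

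Among the globins, only the brighter Hbb-b2 probe set gave a level that could be tested. Hbb-b2 encodes the minor adult beta-globin chain of mice that carry this form of the locus. Probe set 1427865_at read 369, 1928 and 684 in knockdown-labelled cells of mice 278, 279 and 281, against 466, 2530 and 944 in restored-labelled cells. It was lower in the knockdown-labelled cells of every mouse, while the mice themselves lay so far apart that the groups overlapped. The difference was -0.39 ± 0.084, a fold of 0.763, with a 95% interval from -0.62 to -0.15 (unadjusted p = 0.0103, adjusted p = 0.799, limma). The single mice gave -0.32, -0.39 and -0.46, and without mouse 279 the value was -0.39 ± 0.097. When only the restored-labelled array of mouse 279 was dropped, leaving 5 arrays and no mouse term, it was 0.25 ± 0.77. With all 6 arrays and no mouse term the difference stayed at -0.39, with a standard error of 0.80. The second Hbb-b2 probe set, 1427866_x_at, read only 28.7 to 54.1.

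Hba-a1, an adult alpha-globin gene, had a single probe set of its own, 1453574_at. It read 8.85, 6.36 and 5.16 in knockdown-labelled and 13.2, 3.25 and 4.51 in restored-labelled cells, the dimmest of the member probe sets. No level of Hba-a1 above the low end of the scale was thus measured by it. Other globin probe sets are annotated to several genes at once and are given here by their family only, as they are no members. Probe set 1417184_s_at, annotated to several adult beta-globin genes, read 4603, 6014 and 3928 in knockdown-labelled cells of mice 278, 279 and 281, against 2736, 4331 and 2705 in restored-labelled cells. In all 3 mice it was higher in knockdown-labelled cells, by 0.75, 0.47 and 0.54, opposite to 1427865_at. The difference was 0.59 ± 0.099 (unadjusted p = 0.00440, adjusted p = 0.799, limma), and 0.64 ± 0.11 without mouse 279.

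Within arrays, where a change of scaling cancels, the difference of Hbb-b2 1427865_at minus that of the shared beta-globin probe set was -1.07, -0.86 and -0.99 in mice 278, 279 and 281. Its mean was -0.97 ± 0.11 (SD, n = 3 mice; exact two-sided sign-flip p = 0.25, also after adjustment over 3 such contrasts), and these contrasts were chosen after the values were seen. The contrast was negative in all 3 mice. Any contrast with 1 sign in all 3 mice gives this sign-flip p, so after such a choice the p is no support. Beta-globin genes differ by mouse strain: C57BL/6 mice carry Hbb-bs and Hbb-bt in place of Hbb-b1 and Hbb-b2. Which form each mouse of this mixed background carried was not analysed here.

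The 3 probe sets annotated to both adult alpha-globin genes did not go one way. Probe set 1428361_x_at read 227, 1976 and 696 in knockdown-labelled cells of mice 278, 279 and 281, against 345, 1471 and 941 in restored-labelled cells. The differences of the 3 probe sets in the fit were -0.48, -0.19 and -0.045 (adjusted p = 0.799, 0.859 and 0.966, limma). In each of them mouse 279 had a positive difference (0.090, 0.42 and 0.51), and mice 278 and 281 had negative ones (-0.90 to -0.20). Without mouse 279 the values were -0.77, -0.50 and -0.32.

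Heme synthesis was read by 7 probe sets past the filter, of which 5 were higher and 2 lower in the knockdown-labelled cells. None had an unadjusted p below 0.05. Their median difference was 0.10, and it was 0.023 without mouse 279 (4 higher and 3 lower) and -0.0021 with every array centred at its median. Over all 22519 probe sets tested 12360 were higher, and 14496 were higher without mouse 279. Alas2, the erythroid enzyme of the first step, read 35.7, 43.3 and 12.6 in knockdown-labelled cells of mice 278, 279 and 281, against 33.4, 25.9 and 9.13 in restored-labelled cells. All 6 values lie far below the filter intensity. The fit without a filter gave 0.25 ± 0.14 for Alas2 (adjusted p = 0.838, limma).

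Urod, uroporphyrinogen decarboxylase, acts in the cytosol upstream of Cpox and Fech. Probe set 1443849_x_at read 6751, 8469 and 7662 in knockdown-labelled cells, against 7105, 9228 and 7392 in restored-labelled cells of mice 278, 279 and 281. It was lower in 2 mice and higher in mouse 281, with a difference of -0.048 ± 0.088 and an interval from -0.29 to 0.20 (adjusted p = 0.899, limma). The other probe set, 1417206_at, gave -0.080 ± 0.10 with the same signs in each mouse.

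Cpox, coproporphyrinogen oxidase, follows Urod in the pathway and works in the mitochondrial intermembrane space. Its promoter is shown because the erythroid factor GATA1 is known to act on heme genes. The stretch holds the 250 bases before the gene's start (RefSeq, GRCm38.p6, chr16:58669958-58670207, plus strand), and capitals mark matches to the GATA motif:

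Cpox: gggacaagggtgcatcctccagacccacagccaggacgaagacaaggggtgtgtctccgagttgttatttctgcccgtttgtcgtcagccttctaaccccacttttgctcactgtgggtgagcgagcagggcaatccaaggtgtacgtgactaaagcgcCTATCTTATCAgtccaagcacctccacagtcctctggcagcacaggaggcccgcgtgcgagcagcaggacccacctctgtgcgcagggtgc

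The motif was searched as AGATAA or AGATAG or TGATAA or TGATAG on both strands, and the pair of matches in Cpox, at 91 and 86 bases before the start, overlap each other. Of 32851 promoters of this length 26.5% hold at least 1 match. Promoters of Alas2, Hba-a1 and Mt1 also hold 1 each, and those of Urod and Mt2 hold 0.

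The main Cpox probe set, 1422492_at, read 1969, 3170 and 2455 in knockdown-labelled cells of mice 278, 279 and 281, against 1660, 2076 and 2231 in restored-labelled cells. In all 3 mice it was higher in knockdown-labelled cells, most in mouse 279, and the groups overlapped. Its difference was 0.33 ± 0.13, a fold of 1.26, with an interval from -0.031 to 0.69 (unadjusted p = 0.0640, adjusted p = 0.799, limma), and it was 0.19 ± 0.094 without mouse 279. A dimmer probe set near the filter, 1422493_at, read 89.4, 238 and 215 in knockdown-labelled and 90.3, 207 and 123 in restored-labelled cells. It gave 0.30 ± 0.18, with -0.013 in mouse 278. The filter at 149 lies between this probe set, with a mean of 161, and the third Cpox probe set, 1440747_at, with a mean of 59.8 and a difference of -0.15 ± 0.14 in the fit without a filter.

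Fech, ferrochelatase, puts iron into the porphyrin ring as the last step. Probe set 1418699_s_at read 3339, 4134 and 3648 in knockdown-labelled cells of mice 278, 279 and 281, against 2990, 3841 and 3515 in restored-labelled cells. In all 3 mice it was slightly higher in knockdown-labelled cells, at 0.11 ± 0.082 (adjusted p = 0.819, limma), but at -0.0011 with arrays centred at their median. Probe set 1418698_a_at gave 0.091 ± 0.10, and -0.016 after centring. The third, 1449181_at, gave 0.058, 0.84 and -0.58 in mice 278, 279 and 281, a wider spread than the other Fech probe sets. Over the 6 arrays the brighter pair correlated at r = 0.94, while 1449181_at correlated at 0.47 with 1418699_s_at, a description over arrays that share mice. The fourth, 1427696_at, read 32.6 to 66.3.

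The metallothionein genes lie side by side on chromosome 8. Their promoters are shown because the factor MTF1 acts on them through metal response elements. Each stretch holds the 250 bases before the start (RefSeq, GRCm38.p6, plus strand; Mt1 at chr8:94178839-94179088 and Mt2 at chr8:94172368-94172617). Capitals mark the core of the metal response element, searched as TGCACNC or TGCGCNC on both strands.

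Mt1: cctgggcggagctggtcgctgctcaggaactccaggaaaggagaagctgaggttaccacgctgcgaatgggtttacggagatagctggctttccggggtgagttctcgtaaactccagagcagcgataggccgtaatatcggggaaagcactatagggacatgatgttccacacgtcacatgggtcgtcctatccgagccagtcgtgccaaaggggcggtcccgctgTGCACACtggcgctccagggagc

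Mt2: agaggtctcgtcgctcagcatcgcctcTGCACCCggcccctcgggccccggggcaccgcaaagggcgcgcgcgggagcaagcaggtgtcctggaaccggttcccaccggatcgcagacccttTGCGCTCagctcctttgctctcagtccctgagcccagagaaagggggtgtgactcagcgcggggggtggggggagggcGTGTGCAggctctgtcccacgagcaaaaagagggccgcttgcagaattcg

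The Mt2 stretch holds 3 matches, at 223, 128 and 50 bases before the start, and the Mt1 stretch 1, at 23 bases. Only these stretches before the RefSeq starts were searched. Matches beyond them were not counted, so the counts do not give the number of elements of either gene. At least 1 match was found in 21.4% of the 32851 promoters and 3 or more in 0.770%. Promoters of Cpox and Hba-a1 hold 2 and 1, and those of Alas2 and Urod 0.

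Mt2 had the largest difference among the 10 member probe sets. It read 1629, 5132 and 3055 in knockdown-labelled cells of mice 278, 279 and 281, against 1168, 3133 and 2364 in restored-labelled cells. In each mouse it was higher in knockdown-labelled cells, by 0.47, 0.71 and 0.37, and the groups overlapped. Mouse 278 lay below the other mice in both populations, and mice 279 and 281 also overlapped between the groups. The difference was 0.52 ± 0.11, a fold of 1.43, with an interval from 0.22 to 0.82 (unadjusted p = 0.00896, adjusted p = 0.799, limma). It was 0.42 ± 0.094 without mouse 279, 0.41 with centred arrays and 0.82 ± 0.58 in the fit of 5 arrays with no mouse term.

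Mt1 had no common direction among the mice. Probe set 1422557_s_at read 3555, 6335 and 4131 in knockdown-labelled cells of mice 278, 279 and 281, against 3869, 4632 and 5735 in restored-labelled cells. It was higher in mouse 279 and lower in mice 278 and 281, with a difference of -0.048 ± 0.21 and an interval from -0.63 to 0.53 (adjusted p = 0.962, limma). The Mt2 difference minus the Mt1 difference was 0.60, 0.26 and 0.84 in the 3 mice, with a mean of 0.56 ± 0.29 (SD, n = 3 mice; exact two-sided sign-flip p = 0.25). The second Mt1 probe set, 1451612_at, read 5.89 to 38.4. The corresponding contrast of Cpox minus Urod averaged 0.38 ± 0.33 (SD, n = 3 mice; exact two-sided sign-flip p = 0.25) and was positive in each mouse. Both contrasts were also chosen after the values were seen, so their p is no support.

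**Figure D2:**
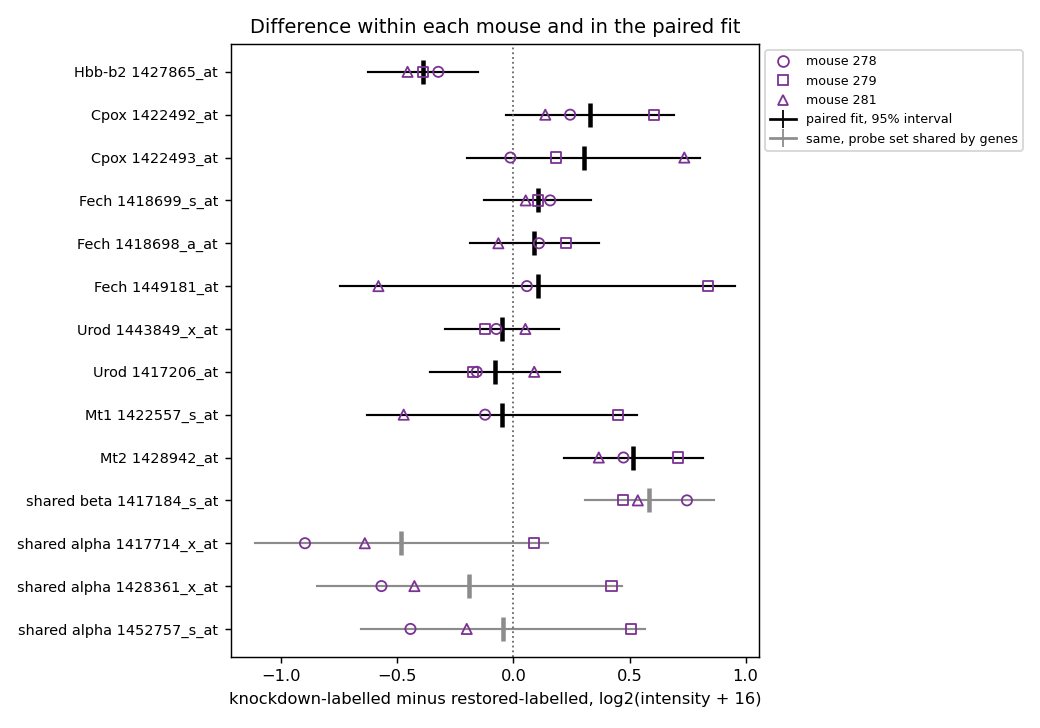
Difference between the populations (knockdown-labelled less restored-labelled, log2 of intensity + 16) for the 10 member probe sets past the filter (black) and the 4 probe sets shared by globin genes (grey); open shapes are single mice, bars the paired fit with its 95% interval. Mt2 (0.52) and the shared beta-globin probe set (0.59) lie right of 0 and Hbb-b2 (-0.39) left of it in all 3 mice, while Mt1 and the shared alpha-globin probe sets are spread over both sides.

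The log2 ratio of mouse 279 over mouse 278 exceeded the size of the difference between populations for 10 of 10 member probe sets. These mice were picked for this ratio after the values were seen. The share over all probe sets was not computed, so the count is not read as particular to the members. The mean level of a mouse over its populations was lowest in mouse 278, intermediate in mouse 281 and highest in mouse 279 for 10 of 10 probe sets, an order found in 20.1% of all probe sets tested. Both arrays of mouse 278 lay below the other 4 for 9 of 10, against 5.48% of all probe sets, and both arrays of mouse 279 lay above the other 4 for 5 of 10, against 8.91%. These patterns were noticed in the values, the members' probe sets vary together, and no test was made of them. Cpox 1422493_at, counted in the order of mice and among the 9, had a mean of 161, near the filter. In mouse 278 it read 89.4 (knockdown-labelled) and 90.3 (restored-labelled), below the filter intensity. Its place among the 10 thus rests on its higher values in the other mice, and it adds little to these counts. Mouse 279 exceeded mouse 278 by 5.33-fold for Hbb-b2, 2.91-fold for Mt2, 1.46-fold for Mt1 and 1.42-fold for the main Cpox probe set. The corresponding ratios were 1.23-fold to 1.29-fold for the Fech and Urod probe sets. Among the globin probe sets shared by genes, the 3 for alpha-globin had the same order, at 4.61-fold to 6.08-fold, and the shared beta-globin probe set did not, with mouse 281 lowest.

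Most other listed genes of red cell precursors, but not all, followed the same order of mice. Of 18 listed erythroid markers 13 had a tested probe set, and 10 of these had mouse 278 lowest and mouse 279 highest. The same order was found in 2598 of all 10825 genes. Add2, Bpgm and Xpo7 did not have it, with mouse 279 at 0.853, 0.940 and 1.03 of the level of mouse 278. Klf1, the erythroid Kruppel-like factor, read 757, 3437 and 1841 in knockdown-labelled cells of mice 278, 279 and 281, against 984, 2838 and 1568 in restored-labelled cells. Both populations of mouse 278 were low and both of mouse 279 high. Epor, the erythropoietin receptor gene, was 3.01-fold higher in mouse 279 than in mouse 278, and Rhag, a Rhesus complex gene, 4.0-fold. The summed intensity of the 16 erythroid markers with a probe set was 20482, 35986 and 25544 in knockdown-labelled cells, against 19955, 28963 and 25011 in restored-labelled cells of mice 278, 279 and 281. Between populations 12 of the 13 tested were higher in the knockdown-labelled cells, with a median of 0.13 and 0 at unadjusted p below 0.05, against 5418 of all 10825 genes higher. The count differed by mouse, and the medians of mice 278, 279 and 281 were -0.015, 0.40 and 0.054. Without mouse 279, 6 of the 13 were higher, with a median of -0.018, against 6509 of all 10825 genes. In bulk samples, fewer cells of a type and less RNA per cell cannot be told apart, and the part of erythroid cells in the members' differences was not tested.

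**Figure D3:**
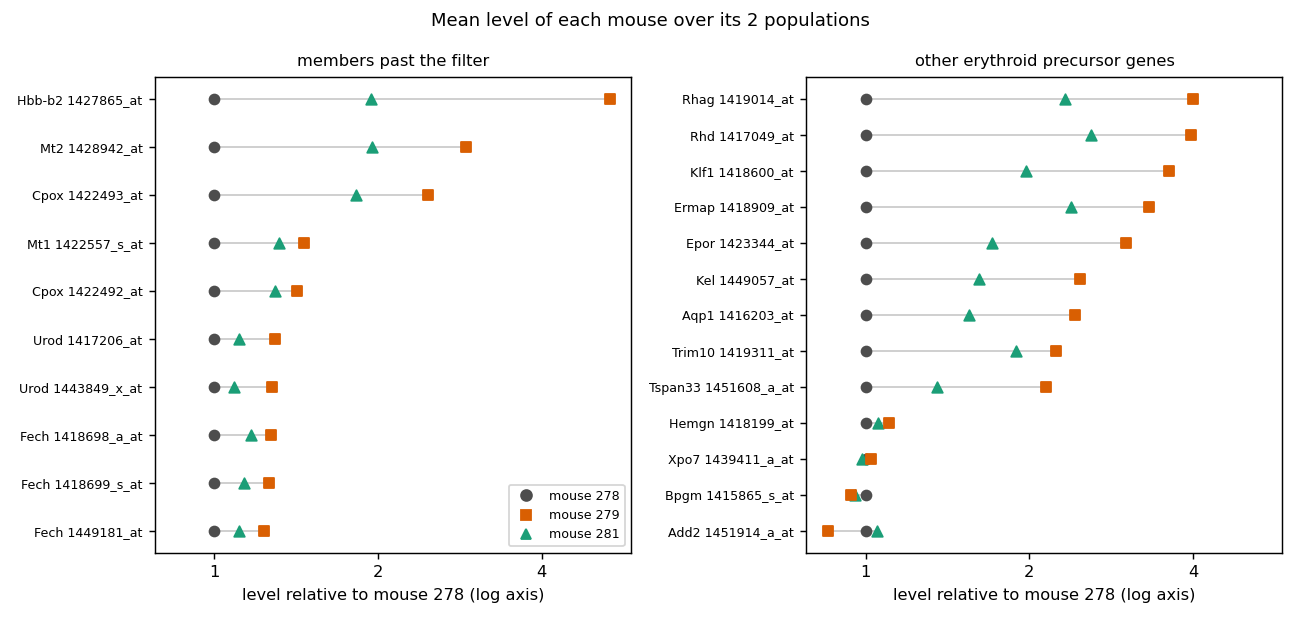
Mean level of each mouse over its populations, relative to mouse 278 (log axis), for the 10 member probe sets past the filter (left) and 13 other erythroid genes (right). Mouse 279 lies farthest right for every member, at 5.33 for Hbb-b2 and 2.91 for Mt2. Among the erythroid genes it lies at 4.0 for Rhag and 3.62 for Klf1, but at 0.853 for Add2, 0.940 for Bpgm and 1.03 for Xpo7.

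The rest of the heme pathway showed no change between populations that passed the test. Of 24 listed genes of heme synthesis, transport and breakdown 21 were tested with their brightest probe set. There were 9 higher and 12 lower in knockdown-labelled cells, 1 at unadjusted p below 0.05 and 0 at adjusted p below 0.05, with a median of -0.011 against 0.00039 over all 10825 genes. Of all 10825 genes 5418 were higher. Without mouse 279, 13 of the list were higher and 8 lower, against 6509 of all 10825 genes higher. Fam210b, a mitochondrial gene with a role in erythroid iron and heme metabolism, had the lowest p of the list, at 0.29 ± 0.091 (unadjusted p = 0.0355, adjusted p = 0.799, limma) and higher in all 3 mice. Bach1, a heme-sensing repressor, gave 0.20 ± 0.11 (adjusted p = 0.799). Between mice, 13 of the 21 had the order of the members, against 2598 of all 10825 genes. Among the 13 were Ppox, which acts between Cpox and Fech (1.45-fold in mouse 279 over mouse 278), Uros (1.36-fold), Alad (1.36-fold) and the mitochondrial glycine carrier gene Slc25a38 (1.84-fold).

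Iron and zinc genes gave similar counts. Of 18 listed iron genes 16 were tested, with 7 higher, 9 lower and a median of -0.012, against 5418 of all 10825 genes higher. Without mouse 279, 10 were higher and 6 lower, against 6509 of all 10825 genes higher. The order of mice seen in the members held for 9 of the 16, against 2598 of all 10825 genes. Hfe, a regulator of iron uptake, was lower in all 3 mice at -0.46 ± 0.16 (unadjusted p = 0.0468, adjusted p = 0.799, limma), and the iron transporter gene Slc11a2 gave 0.19 ± 0.087 (adjusted p = 0.799). Of 23 listed genes of metal response and zinc transport 19 were tested, with 12 higher, 7 lower, a median of 0.044 and 0 at unadjusted p below 0.05. Without mouse 279, 10 were higher and 9 lower. The order of mice seen in the members held for 6 of the 19. The leading genes of this list were the zinc transporters Slc39a3 at -0.29 ± 0.13 and Slc39a8 at 0.30 ± 0.16. Mtf1, the metal-responsive factor, had a mouse 279 level at 0.684 of that of mouse 278, the other way from Mt1 and Mt2. That level rests on the restored-labelled array of mouse 279, which stood apart in RNA quality and read 718. The knockdown-labelled array of mouse 279 read 1501, between the 1646 (knockdown-labelled) and 1401 (restored-labelled) of mouse 278. Of 12 listed other globins and their chaperone only Hba-a2 had a tested probe set of its own, 1427219_at. It read 4849, 4608 and 4891 in knockdown-labelled cells of mice 278, 279 and 281, against 4788, 3534 and 4697 in restored-labelled cells, with a difference of 0.15 ± 0.11 (adjusted p = 0.816, limma). Its level in mouse 279 was 0.838 of that in mouse 278. Of the 6 arrays the restored-labelled one of mouse 279 was lowest. The 3 probe sets annotated to both adult alpha-globin genes read only 130 to 1976, with mouse 279 at 4.61-fold to 6.08-fold of mouse 278. They thus differ from 1427219_at in level and in the order of mice, and the cause was not tested.

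The genes whose levels over the 6 arrays were most like those of the brightest member of each group were sought among 10819 other genes. For Hbb-b2 these were Zdhhc7, Tcta, Rhoc and Lrr1, with Pearson r of 0.989 to 0.993. For Urod they were Lman1, Incenp, Them6 and Ncaph2 (r of 0.987 to 0.998), and for Mt1 they were Fam241a, Rnf125, Exoc2 and Cenpa (r of 0.978 to 0.994). Over so few arrays, 60, 88 and 14 genes exceeded an r of 0.95 with Hbb-b2, Urod and Mt1, and the arrays share mice. Among the members, Mt2 correlated at 0.98 with Fech 1418699_s_at and at 0.93 with Cpox 1422492_at, but at 0.74 with Mt1.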

How the data were processed

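Intensities of 45101 probe sets on 6 arrays were used as the authors deposited them, on a linear scale, with the method of summary and scaling not given in the sources used here. Controls (64) were left out. The probe table names 34945 of the remaining probe sets by 1 symbol, 932 by several and none of 9160; gene identifiers of 34741 matched RefSeq (GRCm38.p6). Array values carry no counts, so the number of arrays limits the precision. In the main fit, p-values rest on the spread of the within-mouse differences over 3 mice, not on the spread of levels between mice. limma draws the variance of each probe set towards a value estimated from all probe sets fitted.

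Values were taken to log2(intensity + 16), which understates fold changes of dim probe sets. Probe sets with a mean at or above the median of all means (149) were fitted with limma 3.58.1 in R 4.3.3, with the mouse as a fixed block, and adjusted by Benjamini-Hochberg over all 22519. Per the labels, 1 animal gave both populations of a mouse number; same-mouse correlations of deviations from the group means were 0.27, -0.077 and -0.21 for mice 278, 279 and 281. Probe sets below the filter come from a fit of all 45037. Lists use the brightest probe set of a gene.

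On simulated arrays with 200 changed probe sets among 22519, 2% of 1.5-fold changes, 59.6% of 2-fold changes and 93.6% of 4-fold changes were found, with 6.3 false calls on average. Every member's fitted fold was under 1.5 in either direction. Named are all member probe sets, the leading 2 genes of each pathway list, and the 4 genes most like the brightest member of each group. Erythroid, heme and other genes given for their order between mice, or for their correlation, were chosen after their values were seen. Members, lists and alternatives were chosen with earlier results of these data known. The alternatives were other blocks, scalings, filters, added values, weights and eBayes settings, 1 value per gene, and leaving out each mouse or 1 array. Figures were drawn with matplotlib 3.10.9.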

Additional observations from a re-analysis of the deposited data

How the results depend on the processing

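Over 17 alternatives, 151 of 160 refitted values of the 10 member probe sets kept their direction, and 0 passed an adjusted p of 0.05. Much of the count of kept directions was fixed in advance. Leaving out the block, a random block, no filter and a stricter filter return the main difference of a fitted probe set by construction. So do the brightest probe set per gene and other eBayes settings. The share over all probe sets was not computed, so the count is not read as support. Mt2 stayed positive (0.41 to 0.82) and Cpox 1422492_at too (0.19 to 0.43). With 5 arrays (the restored-labelled one of mouse 279 dropped) and no mouse term, Hbb-b2 turned to 0.25, Fech 1449181_at to -0.0031, and Urod to 0.067 (1443849_x_at) and 0.041 (1417206_at). With arrays centred, which put the median of all probe sets at -0.086 in place of 0.020, Fech turned to -0.0011 (1418699_s_at), -0.016 (1418698_a_at) and -0.0021 (1449181_at), and the median of the heme synthesis probe sets was -0.0021. Leaving out single mice gave -0.26 to 0.45 for Fech 1449181_at (negative without mouse 279) and -0.30 to 0.16 for Mt1 (positive without mouse 281), and a heme synthesis median of 0.023 to 0.13. With no replicate block the difference of each member was the same by construction (Mt2 at 0.52, Hbb-b2 at -0.39) and no adjusted p passed, but the standard errors grew to 0.52 for Mt2 and 0.80 for Hbb-b2. Their unadjusted p in limma was then 0.362 and 0.645, and 0.360 and 0.643 with the mouse as a random block, so both lost the unadjusted level of 0.05. By construction, centring moves the difference of every probe set by the same amount. The fit of 5 arrays holds mouse 279 in the knockdown-labelled group only, with no mouse term to take up its level. Without the fixed block, the spread between mice enters the error. The cause of the shifts on leaving out single mice was not tested.

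The count past an adjusted p of 0.05 was 1 with array weights and 1 with 5 arrays, neither a member, and 0 without each mouse. Probe sets at unadjusted p below 0.05 numbered 1366, but 2705 with no filter, 822 in the upper 30%, 630 with the brightest probe set per gene, 614 with probe sets averaged by gene, 6397 under array weights, and 575 to 1797 without single mice (575 without mouse 278). The array weights put 5.51 on both arrays of mouse 278, and their estimation did not converge. A median for globins was not computed, since 1 probe set passed the filter.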
